A study of Homo sapiens with 12 samples.

Results

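The SERPIN genes encode the serine protease inhibitors. Their transcripts were followed here in Huh7, an established line grown from a human liver carcinoma, by sequencing the 3′ ends of mRNA. They were taken as the protein-coding genes whose symbol starts with SERPIN, of which 33 are described, out of the 60666 genes listed in each library (19962 of them protein-coding), in 9 clades lettered A to I. Cells received 25 µM Molidustat, an inhibitor of the oxygen-dependent prolyl hydroxylases (PHD) that lead HIF-α to its degradation, or the solvent DMSO alone, for 24 h or 48 h. Each of these 4 groups held 3 libraries (12 in all), and all came from this 1 cell line. The study's methods call the replicates biological, and the series record speaks of RNA extractions in triplicate, so it is not settled whether each library came from a culture of its own, and P values measure the spread between these libraries. Counts on genes ranged from 1499273 to 9179389 per library, and those on SERPIN genes from 963 to 25446.

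An inhibitory serpin exposes a flexible loop that a protease cleaves as a substrate. The cut makes the serpin change shape, which traps the protease in an inactive covalent complex. Hepatocytes secrete many of the serpins of blood plasma, where they restrain clotting, fibrinolysis, complement and the proteases of leukocytes, whereas the clade B members mostly stay inside cells. Some members inhibit no protease and carry hormones or assist collagen folding instead. HIF, which the drug stabilises, binds hypoxia response elements, whose core reads ACGTG or GCGTG.

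Of the 33 genes, 22 had at least 1 count and 17 passed the filter on low counts, which asks for about 10 counts in at least 3 libraries. A gene could pass through its Molidustat libraries alone, so counts over these 17 are descriptions. The other 11 had 0 counts over all 12 libraries, which allows up to 3 (counting error only), namely SERPINA9, SERPINA12 and 9 clade B genes (SERPINB2, SERPINB3, SERPINB4, SERPINB5, SERPINB7, SERPINB10, SERPINB11, SERPINB12 and SERPINB13). SERPINA11 had 67 counts in all, SERPINE3 had 17, SERPINA3 had 4, SERPINB8 had 3 and SERPINI2 had 1. SERPINA3, the acute phase inhibitor antichymotrypsin, lies over its whole 11672 bases within ENSG00000273259, a protein-coding gene of the same strand that had 193 counts. Reads of SERPINA3 may therefore have been set aside or given to that gene, and its 4 counts are not read as a low level. The 10 clade B genes of chromosome 18 (63476958 to 64019779 on GRCh38) gave 3 counts between them, all on SERPINB8, which shares 11746 bases with HMSD on the same strand. In contrast, the 3 clade B genes of chromosome 6 (2832332 to 2972165), SERPINB1, SERPINB6 and SERPINB9, gave 8366 counts. The 9 clade A genes that lie within 343.6 kb of chromosome 14 (94280460 to 94624055) gave 93129 counts, most of them on SERPINA1. By clade, A took 72.0% of all SERPIN counts, F took 10.4%, B took 6.41% and D took 3.97%.

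For the 5 genes whose log2 fold change with Molidustat was above 1 at 24 h, the bases before the start site are printed next. Whether these bases regulate the genes was not tested. The bases read 5′ to 3′ in the direction of transcription and come from RefSeq on GRCh38.p14. Capitals mark GCGTG, or its reverse complement CACGC, the hypoxia response core as the search found it. Bases that belong to an exon of the gene in GENCODE 44 were left out, which shortened the run from 250 to 192 bases for SERPINA1 and to 154 for SERPINB1.
SERPINA1 (chr14:94390694-94390885, minus strand): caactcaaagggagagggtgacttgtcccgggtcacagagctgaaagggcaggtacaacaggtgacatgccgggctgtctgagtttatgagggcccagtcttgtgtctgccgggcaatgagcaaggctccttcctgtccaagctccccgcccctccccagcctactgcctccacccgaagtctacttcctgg
SERPINA7 (chrX:106038728-106038977, minus strand): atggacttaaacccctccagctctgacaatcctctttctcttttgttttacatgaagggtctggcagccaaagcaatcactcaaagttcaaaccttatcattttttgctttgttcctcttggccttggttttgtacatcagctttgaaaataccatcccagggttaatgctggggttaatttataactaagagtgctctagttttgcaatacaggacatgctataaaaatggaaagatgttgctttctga
SERPIND1 (chr22:20773863-20774112, plus strand): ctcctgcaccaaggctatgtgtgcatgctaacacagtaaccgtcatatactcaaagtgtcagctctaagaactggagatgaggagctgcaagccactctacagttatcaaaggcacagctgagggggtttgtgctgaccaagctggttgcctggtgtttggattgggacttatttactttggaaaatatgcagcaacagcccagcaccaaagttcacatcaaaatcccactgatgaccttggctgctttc
SERPINB1 (chr6:2841960-2842113, minus strand): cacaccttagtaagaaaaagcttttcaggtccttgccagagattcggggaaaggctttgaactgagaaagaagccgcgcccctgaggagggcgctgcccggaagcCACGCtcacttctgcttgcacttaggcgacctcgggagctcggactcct
SERPINB9 (chr6:2903310-2903559, minus strand): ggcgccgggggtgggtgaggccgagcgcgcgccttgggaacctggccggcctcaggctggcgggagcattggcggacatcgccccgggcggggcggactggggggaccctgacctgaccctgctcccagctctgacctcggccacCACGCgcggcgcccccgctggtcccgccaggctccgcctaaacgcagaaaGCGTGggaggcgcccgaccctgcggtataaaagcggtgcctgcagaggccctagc
SERPINB9 held 2 matches and SERPINB1 held 1, while SERPINA7 and SERPIND1 held none in this window. SERPINA1 has 2 RefSeq windows. The one shown, of the upstream start, held 1 match, which starts 15 bases before that start and so lies inside the stretch left out, and the other (chr14:94388603-94388852), which lies within the gene, held none. ACGTG and GCGTG were searched on both strands, and ACGTG on one strand overlaps ACGTG on the other wherever a C precedes it, as in SERPINE2. Of the 13 genes tested that have an entry, 7 held a match in at least 1 window, and 11 of their 20 windows held one. Among the 14646 windows of this length before all genes tested, 55.3% held one, and 43.2% of all 35116 windows did. The share of all genes with a match in any window is not given, so the count of 7 genes is a description. Windows of 1 gene can overlap, as chr6:2971290-2971539 and chr6:2971277-2971526 of SERPINB6 do, and the same match then counts in both. A match describes the letters alone, and a window without one says nothing of HIF elsewhere.

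The cell type was checked first. All 12 hepatocyte or hepatoma markers were counted in every library, led by AFP at 3908 to 10323 CPM (gene counts brought to 1 common depth with TMM factors; they were not divided by transcript length, since each transcript yields tags near its 3′ end). Endothelial markers summed to at most 6.45 CPM in any library, almost all on PECAM1, with VWF and TEK at 0. Fibroblast or stellate markers summed to at most 22.2 CPM, led by LUM, with ACTA2 at 0. Of the 6 leukocyte markers CD3E was at 0 and PTPRC had 7 counts in all, while LYZ, the most abundant, was at 42.9 to 231.7 CPM.

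One library, DMSO 48 h replicate 2, stood apart. It had the fewest counts on genes, and 50.4% of its reads lay outside annotated features, against 17.1 to 25.6% in the other 11 libraries. Its correlation with other libraries, across genes, was 0.707 to 0.782, where all other pairs reached 0.855 to 0.956. Values that turn on it are therefore given with and without it, since it also enters the spread behind the 24 h tests.

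As a fraction of all mRNA counts, SERPIN transcripts took more with Molidustat. They made up 0.136, 0.129 and 0.124% of gene counts in the 3 DMSO libraries at 24 h and 0.233, 0.310 and 0.203% in the 3 Molidustat libraries. At 48 h the shares were 0.169, 0.0642 and 0.186% with DMSO and 0.372, 0.330 and 0.405% with Molidustat. The Molidustat libraries lay above the DMSO libraries at both times, and the lowest value came from DMSO 48 h replicate 2. In such bulk libraries, fewer cells of a kind and less RNA per cell cannot be told apart. The summed hepatocyte or hepatoma markers moved in the same direction, from 15064 to 19334 CPM with DMSO to 19699 to 27121 CPM with Molidustat at 24 h, and from 9451 to 19875 CPM to 28014 to 31479 CPM at 48 h. Their members were not uniform. TF had separate groups at both times, whereas AFP, the largest part of the sum, overlapped between treatments at 24 h. APOB was at 1147, 864 and 1672 CPM with DMSO and 908, 888 and 886 CPM with Molidustat at 48 h. Among the other markers, the fibroblast sum at 24 h was 1.86 to 8.27 CPM with DMSO and 2.87 to 7.88 CPM with Molidustat, which overlapped, and at 48 h it was 2.13 to 7.59 CPM with DMSO and 14.6 to 22.2 CPM with Molidustat, where LYZ went from 100.6 to 136.6 CPM down to 42.9 to 72.2 CPM. At 24 h LYZ overlapped between the groups. CD14, of the same leukocyte list, went the other way, from 0 to 2.997 CPM with DMSO to 7.42 to 10.3 CPM with Molidustat at 48 h. The part of these markers in the SERPIN values was not tested.

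**Figure D1:**
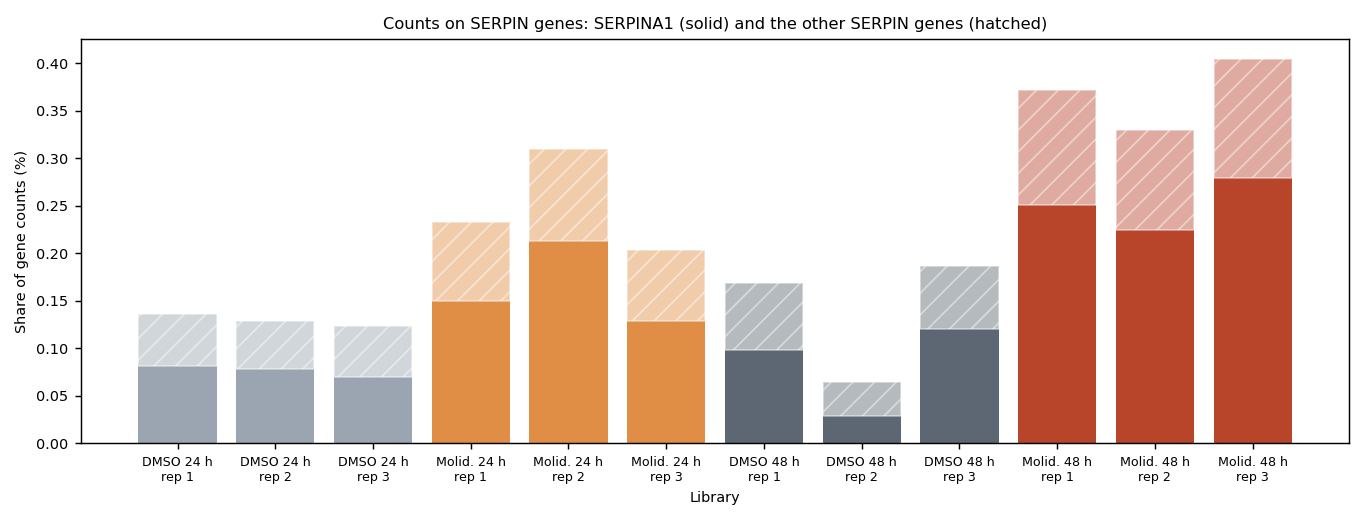
Share of all gene counts that fell on SERPIN genes (y axis, percent) in each of the 12 libraries (x axis), split into SERPINA1 and the other SERPIN genes. The Molidustat bars stand between 0.203 and 0.405%, all above the DMSO bars, which stand between 0.0642 and 0.186%.

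SERPINA1 alone took 45.7% of the SERPIN counts in DMSO 48 h replicate 2 and 56.6 to 69.0% in the other libraries. The remaining SERPIN genes together had 0.0506 to 0.0552% of gene counts with DMSO and 0.0750 to 0.0973% with Molidustat at 24 h. At 48 h their share was 0.0349 to 0.0709% with DMSO and 0.106 to 0.125% with Molidustat. The larger share with Molidustat therefore did not come from SERPINA1 alone.

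Gene by gene, edgeR called 0 of the 17 genes tested higher and 0 lower with Molidustat, at 24 h as at 48 h. Log2 fold changes (log2FC) are given ± standard error, from edgeR's quasi-likelihood fit over all genes, and a call needed log2FC beyond 1 together with an adjusted P below 0.05. Of all 14274 genes tested, 0.231% were called higher and 0.0% lower at 24 h, and 0.21% higher and 0.021% lower at 48 h. At an unadjusted P below 0.05, 7 of the 17 were higher at 24 h, 10 were higher at 48 h, and 0 were lower at either time. Over all genes tested the shares were 3.73% higher and 1.52% lower at 24 h, and 4.53% higher and 8.81% lower at 48 h. With DMSO 48 h replicate 2 left out, 9 of 18 SERPIN genes were higher at 24 h, 10 at 48 h and 0 lower, where 6.19% of all genes were higher and 2.85% lower at 24 h, and 3.68% and 2.92% at 48 h. Direction was more uniform than the calls: log2FC was positive for 14 of 17 genes at 24 h and for 16 at 48 h, where 51.5% and 50.4% of all genes were positive. The median log2FC was 0.60 at 24 h and 0.96 at 48 h, against 0.02 and 0.01 over all genes tested.

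The groups were fully separate for many of them. All 3 Molidustat values exceeded all 3 DMSO values for 11 of the 17 genes at 24 h (7.26% of all genes) and for 12 at 48 h (9.96%). At both times this held for 9 genes (2.2% of all genes), which were SERPINA1, SERPINA5, SERPINA6, SERPINA7, SERPINB1, SERPIND1, SERPINF2, SERPING1 and SERPINH1. SERPINA10 was the 1 gene with all Molidustat values below the DMSO values, at 24 h (5.02% of all genes), and there was none at 48 h (8.02%). The 24 h and 48 h comparisons share no library, though they share the estimate of the spread.

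Without DMSO 48 h replicate 2, its group held 2 libraries, and the filter asked for about 10 counts in at least 2 libraries. SERPINA11 then also passed, through Molidustat 48 h replicates 2 and 3 (29 and 20 counts). It had 0 counts in every DMSO library at 24 h, so its log2FC at 24 h is not given, though it enters the counts and medians over 18 genes. In this fit edgeR called 2 of 18 genes higher at 24 h (SERPINA1 and SERPINB9) and 1 at 48 h (SERPINA1). The background was then 0.728% of all genes higher and 0.0328% lower at 24 h, and 0.315% higher and 0.0328% lower at 48 h. The medians over these 18 genes were 0.69 and 0.86, and over the same 17 as before 0.61 and 0.84, and 10 genes had separate groups at both times, SERPINB9 being the one added (3.03% of all genes). At 48 h alone 13 genes were then above (13.7% of all genes). DESeq2 on all libraries called SERPINA1 at 24 h (0.764% of all genes) and SERPINA1, SERPINA5 and SERPINF2 at 48 h (1.41%). Without the library it called SERPINA1, SERPINA7, SERPINB9 and SERPIND1 at 24 h (1.3% of all genes) and SERPINA1 and SERPINA5 at 48 h (1.04%). Limma-voom with all libraries called none at 24 h (0.448% of all genes) and SERPINA1 and SERPINA5 at 48 h (1.71%). Without the library it called SERPINA1 and SERPINB9 at 24 h (0.583% of all genes) and again SERPINA1 and SERPINA5 at 48 h (1.22%). Without the filter on low counts and with all libraries, edgeR called SERPINA7 at 24 h (0.366% of all genes) and SERPINA1, SERPINA5 and SERPINA7 at 48 h (0.542%).

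**Figure D2:**
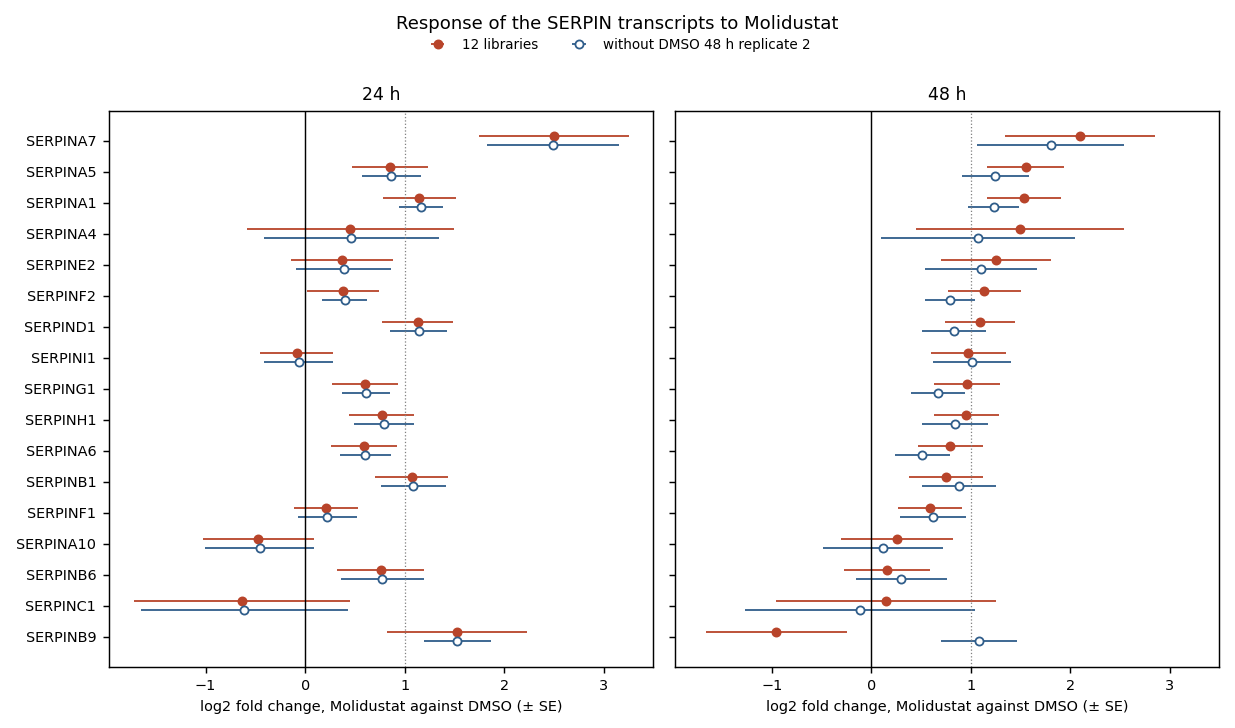
Log2FC, Molidustat against DMSO (x axis, bars ± standard error), of the 17 SERPIN genes tested (y axis) at 24 h and 48 h, for all 12 libraries and without DMSO 48 h replicate 2. SERPINA7 stands farthest from 0, at 2.50 and 2.10 with all libraries, and at 48 h SERPINB9 and, near 0, SERPINC1 change side between the fits.

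Among the inhibitors of clotting, fibrinolytic and complement proteases, all 7 genes described were tested, and log2FC was above 0 for 5 of them at 24 h and for 7 at 48 h, or 6 at 48 h without DMSO 48 h replicate 2, where SERPINC1 went from 0.15 to -0.11. SERPIND1 and SERPINC1 inhibit thrombin with heparin as cofactor. SERPIND1 (ENSG00000099937; chromosome 22, 20774113 to 20787720, plus strand), heparin cofactor II, held 45.9, 31.2 and 52.7 CPM with DMSO and 86.04, 131 and 67.7 CPM with Molidustat at 24 h. The 48 h levels were 74.1, 37.3 and 76.1 CPM with DMSO and 119, 131 and 155 CPM with Molidustat. The groups did not overlap at either time. Log2FC was 1.13 ± 0.36, edgeR-adjusted P = 0.447 at 24 h and 1.09 ± 0.35, edgeR-adjusted P = 0.214 at 48 h, and 1.14 and 0.83 without DMSO 48 h replicate 2. SERPIND1 lies within PI4KA on the other strand, which had 549 counts in all against 5184. SERPINC1, antithrombin, was scarcely counted, with 191 counts in all and group means of 2.26 to 4.09 CPM, and its groups overlapped at both times. Its log2FC was -0.63 ± 1.09 at 24 h, or -1.24 to -0.10 with 1 library left out, and 0.15 ± 1.11 at 48 h, and its difference from SERPIND1 was not tested.

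SERPINA5 and SERPINA10 restrain clotting enzymes, the first as the protein C inhibitor and the second as the protein Z-dependent inhibitor of factor Xa. SERPINA5 (ENSG00000188488; chromosome 14, 94561442 to 94593118, plus strand) held 45.9, 33.1 and 50.6 CPM with DMSO and 67.4, 111 and 56.3 CPM with Molidustat at 24 h. After 48 h the values were 49.3, 19.2 and 49.3 CPM and 124, 92.7 and 138 CPM, again without overlap. Log2FC was 0.85 ± 0.38 at 24 h, or 0.51 to 1.03 with 1 library left out, and 1.55 ± 0.38, edgeR-adjusted P = 0.148 at 48 h. DESeq2 called it at 48 h with an adjusted P of 0.00745, and with 0.0131 once DMSO 48 h replicate 2 was left out. The annotation of SERPINA5 takes in the whole of SERPINA4 on the same strand (8472 bases), so reads may have been split between them. SERPINA5 also shares 1061 bases on the same strand with ENSG00000273259, which had 193 counts. That gene runs on over SERPINA3, so the shared bases lie at the 3′ end of SERPINA5, near which its tags fall. Reads there may have been set aside or given to that gene, and the level of SERPINA5 is uncertain. SERPINA10 had 7.51 ± 1.24 CPM with DMSO and 5.39 ± 0.179 CPM with Molidustat at 24 h (SD, n = 3), with log2FC of -0.47 ± 0.56. At 48 h it was 0.25 ± 0.56 with overlapping groups, and ran from -0.23 to 0.45 with 1 library left out.

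SERPINF2 (ENSG00000167711; chromosome 17, 1742836 to 1755265, plus strand), α2-antiplasmin, the inhibitor of plasmin, had the second highest mean over all libraries. It held 114, 144 and 116 CPM with DMSO and 191, 149 and 148 CPM with Molidustat at 24 h, so that the groups were only just apart. The 48 h levels were 206, 64.9 and 161 CPM with DMSO and 342, 299 and 317 CPM with Molidustat. Log2FC was 0.38 ± 0.36 at 24 h, or 0.25 to 0.50 with 1 library left out, and 1.14 ± 0.36, edgeR-adjusted P = 0.21, at 48 h. The difference between these responses was 0.76 ± 0.51, edgeR-adjusted P = 0.838, and 0.39 ± 0.33 without DMSO 48 h replicate 2. Without DMSO 48 h replicate 2 the 48 h value was 0.79 ± 0.25.

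SERPINE2 (ENSG00000135919; chromosome 2, 223975045 to 224039318, minus strand), protease nexin 1, inhibits thrombin and plasminogen activators at cell surfaces. It held 15.4, 18.9 and 7.85 CPM with DMSO and 20.1, 17.96 and 16.2 CPM with Molidustat at 24 h. After 48 h the values were 4.61, 2.13 and 3.31 CPM and 10.1, 3.86 and 11.3 CPM. The treatment groups overlapped at both times, and the 48 h levels lay below the 24 h levels within each treatment. Log2FC with Molidustat was 0.37 ± 0.51 at 24 h, or 0.06 to 0.63 with 1 library left out, and 1.25 ± 0.55 at 48 h. SERPING1, the C1 inhibitor of complement and contact proteases, had 45.6 ± 8.51 CPM with DMSO and 69.3 ± 3.21 with Molidustat at 24 h, and 54.4 ± 22.6 and 108 ± 10.8 CPM at 48 h (SD, n = 3). Its groups did not overlap, and log2FC was 0.60 ± 0.33 and 0.96 ± 0.33.

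The plasma inhibitors of leukocyte and tissue proteases were SERPINA1, SERPINA3 and SERPINA4. SERPINA1 (ENSG00000197249; chromosome 14, 94376747 to 94390693, minus strand), α1-antitrypsin, which restrains neutrophil elastase, was the most abundant SERPIN transcript in every library. It held 752, 743 and 688 CPM with DMSO and 1454, 2120.0 and 1259.8 CPM with Molidustat at 24 h. After 48 h SERPINA1 held 911, 468 and 1143 CPM with DMSO and 2392, 2223 and 2691 CPM with Molidustat. The lowest Molidustat library was above the highest DMSO library at each time. Log2FC was 1.15 ± 0.37, edgeR-adjusted P = 0.475 at 24 h and 1.53 ± 0.37, edgeR-adjusted P = 0.135 at 48 h. Leaving out DMSO 48 h replicate 2 gave 1.16 ± 0.22, edgeR-adjusted P = 0.0149, at 24 h and 1.23 ± 0.26, edgeR-adjusted P = 0.0474, at 48 h, and SERPINA1 was then called at both. DESeq2 called it with all 12 libraries (DESeq2-adjusted P = 0.039 at 24 h and 0.000411 at 48 h). The difference between the 2 responses was 0.39 ± 0.51, and 0.07 ± 0.33 without that library.

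SERPINA4 (ENSG00000100665; chromosome 14, 94561442 to 94569913, plus strand), kallistatin, an inhibitor of tissue kallikrein, had few and uneven counts. All its 8472 annotated bases lie within SERPINA5 on the same strand, so that reads may have been set aside or given to that gene, and its counts are not read as its level. It held 0, 2.696 and 8.68 CPM with DMSO and 2.51, 6.19 and 6.92 CPM with Molidustat at 24 h. At 48 h the levels were 8.13, 0 and 3.10 CPM with DMSO and 11.7, 11.2 and 12.8 CPM with Molidustat, so the groups were apart at 48 h and overlapped at 24 h. Log2FC was 0.46 ± 1.04 at 24 h and 1.49 ± 1.04 at 48 h, and the 24 h value was -0.13 without DMSO 24 h replicate 1.

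**Figure D3:**
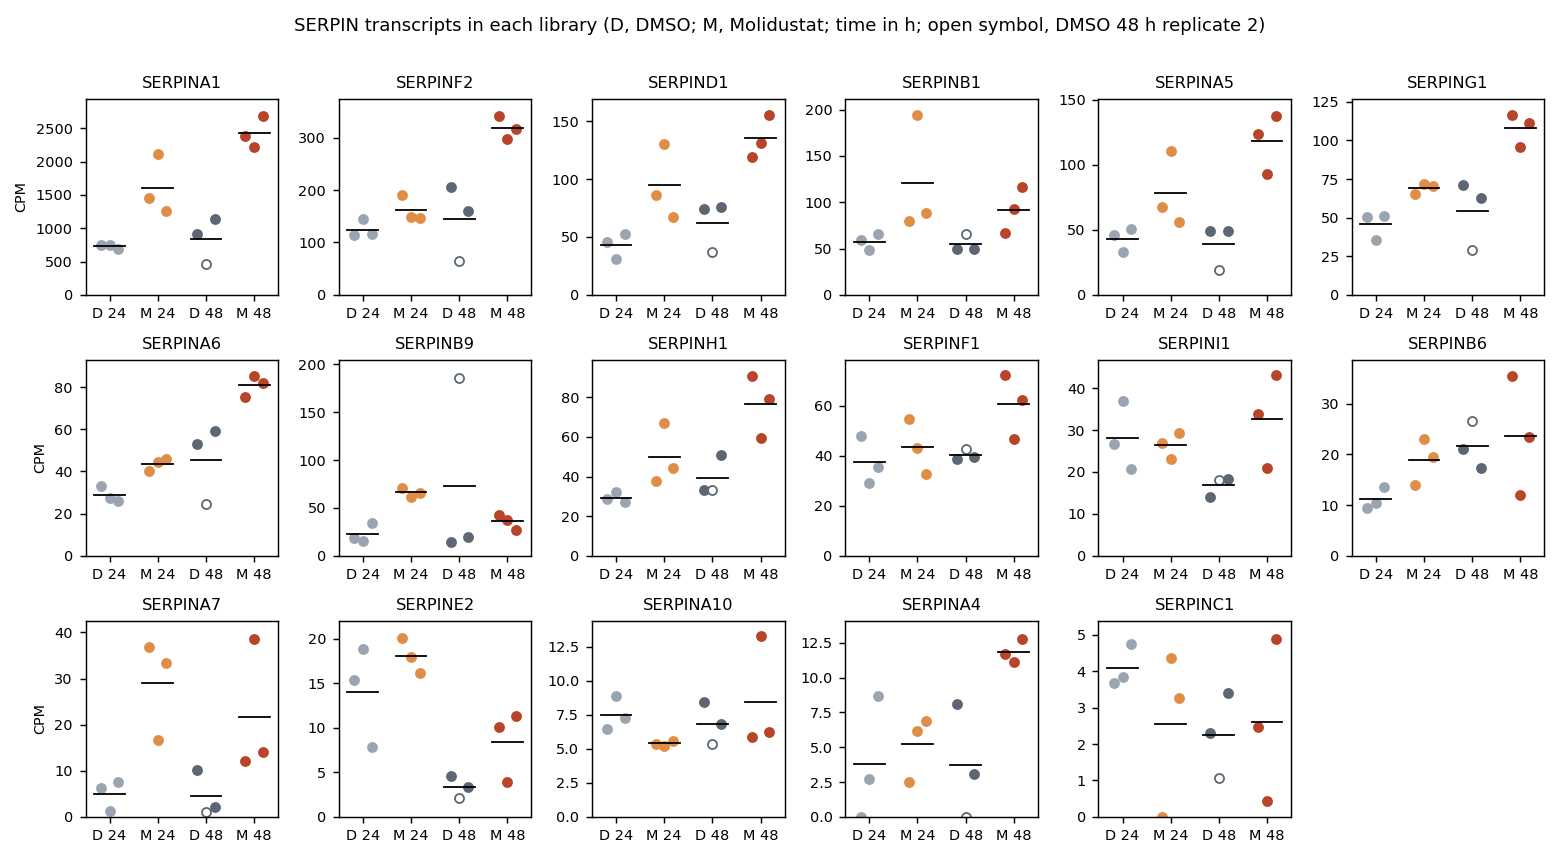
CPM (y axis) of the 17 SERPIN genes tested in each library, by treatment and time (x axis), with DMSO 48 h replicate 2 marked. That library is the lowest of the 12 for SERPINA1 (468 CPM) and the highest for SERPINB9 (186 CPM).

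Both hormone carriers, which bind their ligand without inhibiting a protease, had separate groups at both times (2.2% of all genes). SERPINA7 (ENSG00000123561; chromosome X, 106032435 to 106038727, minus strand), the thyroxine-binding globulin, had the largest log2FC of the 17 genes at both times. It held 6.20, 1.16 and 7.44 CPM with DMSO and 36.9, 16.6 and 33.3 CPM with Molidustat at 24 h. After 48 h SERPINA7 held 10.2, 1.06 and 2.07 CPM with DMSO and 12.1, 38.6 and 14.1 CPM with Molidustat, where 1 Molidustat library lay far above its companions. Log2FC was 2.50 ± 0.75, edgeR-adjusted P = 0.376 at 24 h and 2.10 ± 0.75, edgeR-adjusted P = 0.241 at 48 h. The 48 h value ranged from 1.39 to 3.53 with 1 library left out. It was called in 1 of those 12 fits, the one without DMSO 48 h replicate 1. The share of all genes is not given for that fit. SERPINA6, the corticosteroid-binding globulin, had 28.8 ± 3.95 CPM with DMSO and 43.4 ± 2.93 with Molidustat at 24 h, and 45.6 ± 18.5 and 80.8 ± 5.25 CPM at 48 h (SD, n = 3). Its log2FC was 0.59 ± 0.33 and 0.79 ± 0.33, and at 48 h 0.51 without DMSO 48 h replicate 2.

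Of the 13 intracellular clade B genes, 3 were tested, all on chromosome 6, and all 3 had their Molidustat libraries above the DMSO libraries at 24 h (7.26% of all genes). SERPINB9 (ENSG00000170542; chromosome 6, 2887270 to 2903309, minus strand), the inhibitor of granzyme B, held 18.8, 15.4 and 34.3 CPM with DMSO and 70.99, 61.9 and 65.95 CPM with Molidustat at 24 h. At 48 h the levels were 13.96, 186 and 19.7 CPM with DMSO and 43.1, 37.7 and 27.2 CPM with Molidustat. Hence DMSO 48 h replicate 2, the library that stood apart, held the highest SERPINB9 level of all, and the other 2 DMSO libraries lay below every Molidustat library. Log2FC at 48 h was -0.95 ± 0.70 with all libraries and 1.08 ± 0.38, edgeR-adjusted P = 0.485, without that library. At 24 h it was 1.53 ± 0.70, edgeR-adjusted P = 0.928, with all libraries, and SERPINB9 was called without the library (1.53 ± 0.34, edgeR-adjusted P = 0.0383). The difference between the 48 h and 24 h responses was -2.48 ± 0.996, edgeR-adjusted P = 0.728, and -0.45 ± 0.50 without the library.

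SERPINB1 (ENSG00000021355; chromosome 6, 2832332 to 2841959, minus strand), an inhibitor of neutrophil proteases, held 58.8, 48.1 and 65.3 CPM with DMSO and 79.2, 194 and 88.1 CPM with Molidustat at 24 h. Molidustat 24 h replicate 2 was thus well above its companions, and log2FC ranged from 0.54 to 1.29 at 24 h with 1 library left out. After 48 h SERPINB1 held 49.6, 66.01 and 49.4 CPM with DMSO and 66.7, 92.7 and 116 CPM with Molidustat, where the nearest libraries almost met. With all libraries log2FC was 1.07 ± 0.37, edgeR-adjusted P = 0.589 at 24 h and 0.75 ± 0.37 at 48 h. SERPINB6, an inhibitor of several serine proteases, had 11.2 ± 2.21 CPM with DMSO and 18.8 ± 4.57 with Molidustat at 24 h, then 21.6 ± 4.71 and 23.7 ± 11.7 CPM at 48 h (SD, n = 3). Its groups were barely apart at 24 h, with a highest DMSO level of 13.6 CPM and a lowest Molidustat level of 13.98 CPM. Log2FC of SERPINB6 was 0.76 ± 0.44 at 24 h. At 48 h the groups overlapped, and log2FC was 0.16 ± 0.43, running from -0.24 to 0.45 with 1 library left out.

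SERPINF1 and SERPINH1 act outside protease inhibition. SERPINH1, the collagen chaperone HSP47 of the endoplasmic reticulum, had 29.3 ± 2.74 CPM with DMSO and 49.8 ± 15.2 with Molidustat at 24 h, and 39.2 ± 10.3 and 76.6 ± 15.8 CPM at 48 h (SD, n = 3). Its groups did not overlap at either time, and log2FC was 0.77 ± 0.33, or 0.49 to 0.93 with 1 library left out, and 0.96 ± 0.33. SERPINF1, the pigment epithelium-derived factor, lies beside SERPINF2 on chromosome 17. It had 37.4 ± 9.72 and 43.6 ± 10.998 CPM at 24 h and 40.3 ± 2.01 and 60.5 ± 12.9 CPM at 48 h (DMSO and Molidustat, SD, n = 3), with groups apart at 48 h. Its log2FC was 0.21 ± 0.32 and 0.59 ± 0.32, the former running from 0.02 to 0.43 with 1 library left out.

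The remaining gene tested was SERPINI1, neuroserpin, an inhibitor of tissue plasminogen activator best known from neurons. It had 28.1 ± 8.26 and 26.4 ± 3.05 CPM at 24 h, and 16.8 ± 2.45 and 32.7 ± 11.1 CPM at 48 h (DMSO and Molidustat, SD, n = 3). Its groups were apart at 48 h and overlapped at 24 h, with log2FC of 0.98 ± 0.38 and -0.08 ± 0.37. The difference between these responses was 1.06 ± 0.52, edgeR-adjusted P = 0.768.

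By level, the upper places in the 24 h DMSO libraries were taken by SERPINA1 (728 ± 34.9 CPM) and SERPINF2 (125 ± 17.2 CPM). They were followed by SERPINB1 (57.4 ± 8.65 CPM), SERPING1 (45.6 ± 8.51 CPM), SERPIND1 (43.3 ± 10.98 CPM) and SERPINA5 (43.2 ± 9.05 CPM), whose ranges overlapped (SD, n = 3). The place of SERPINA5 is uncertain, since genes of the same strand overlap it. At the other end, SERPINA4 being left aside, lay SERPINC1 (4.09 ± 0.577 CPM) and SERPINA7 (4.93 ± 3.33 CPM), which overlapped too.

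Between 48 h and 24 h no SERPIN gene was called by edgeR in either treatment, and DESeq2 (0.245% of all genes with DMSO and 0.0801% with Molidustat, in either direction) and limma-voom (0.014% and 0.00701%) also called 0. At an unadjusted P below 0.05, edgeR had 1 gene higher (SERPINB9) and 1 lower (SERPINE2) with DMSO, where 6.76% and 1.38% of all genes were, and 2 higher (SERPINA6 and SERPINF2) and 0 lower with Molidustat, where 2.39% and 2.19% were. Once DMSO 48 h replicate 2 was left out, there were 5 higher and 1 lower with DMSO (2.89% and 1.13% of all genes) and 5 higher and 2 lower with Molidustat (4.38% and 4.86%). The 5 higher with Molidustat included SERPINA11, which had few counts. The DMSO value of SERPINB9 rests on that library, with log2FC of 1.60 with it and -0.43 without it. Over all genes tested, 0.0% were called higher in both comparisons, and 0.00701% were called lower with DMSO and 0.0% with Molidustat. SERPINE2 was lower at 48 h than at 24 h in every DMSO library (log2FC -1.96 ± 0.55, edgeR-adjusted P = 0.541) and in every Molidustat library (-1.08 ± 0.52). With DMSO, SERPINB6 and SERPINH1 were higher at 48 h without overlap (5.75% of all genes), and SERPINC1, SERPINE2 and SERPINI1 were lower (6.19%). Without DMSO 48 h replicate 2, SERPINA1, SERPINA6, SERPIND1, SERPINF2 and SERPING1 were also higher without overlap, which made 7 genes (13.4% of all genes), and the same 3 were lower (9.84%). With Molidustat, SERPINA1, SERPINA4, SERPINA6, SERPINA10, SERPINF2 and SERPING1 were higher at 48 h without overlap (7.15% of all genes), and SERPINB9 and SERPINE2 were lower (6.79%). The test of a different response to Molidustat at the 2 times gave 0 calls of 17 by edgeR, DESeq2 and limma-voom, with 1 gene, SERPINB9, below an unadjusted P of 0.05 in edgeR, where its response was lower at 48 h (5.6% of all genes lower and 1.18% higher). There was 0 without DMSO 48 h replicate 2 (1.95% and 1.24%). Over all genes tested 0.0% were called in that test by edgeR and limma-voom and 0.0142% by DESeq2. Without the filter on low counts, SERPINB9 was called in that test (1.13% of all genes) and as higher at 48 h than at 24 h with DMSO (1.36%), both with all libraries.

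The proteases that serpins block were partly absent or too low for the filter. Of 34 listed, 24 had counts and 15 were tested, and 10 were at 0, among them neutrophil elastase (ELANE), cathepsin G (CTSG), granzyme A (GZMA) and granzyme B (GZMB). Plasminogen (PLG) and its activators PLAT and PLAU had 48, 9 and 59 counts in all and did not pass the filter with all libraries. The highest levels belonged to the lysosomal protease CTSB, with log2FC of 0.08 at 24 h and 0.04 at 48 h, and to prothrombin (F2), with 0.31 and 0.90, the latter being 0.46 without DMSO 48 h replicate 2. With 1 library left out, CTSB ran from -0.08 to 0.18 at 24 h and from -0.14 to 0.22 at 48 h. F2 at 24 h then ran from 0.19 to 0.38. None was called by edgeR at either time, with 3 higher at 24 h (3.73% of all genes) and 5 at 48 h (4.53%) at an unadjusted P below 0.05, or 3 of 16 at each time without DMSO 48 h replicate 2 (6.19% and 3.68%). DESeq2 and limma-voom called none at 24 h and 2 at 48 h (1.41% and 1.71% of all genes), HPN and MASP1, which encode hepsin and a protease of the lectin pathway of complement. DESeq2 no longer called HPN once DMSO 48 h replicate 2 was left out (DESeq2-adjusted P = 0.0268 with it and 0.0753 without it), while limma-voom still called both. The median log2FC of the 15 was 0.31 at 24 h and 0.99 at 48 h, and 0.62 at 48 h over the 16 tested without DMSO 48 h replicate 2, PLAU being the one added (log2FC -1.44 at 24 h and -1.39 at 48 h). With all libraries log2FC was positive for 12 of the 15 at 24 h and for 14 at 48 h (51.5% and 50.4% of all genes). A mostly positive direction was thus not particular to the SERPIN genes.

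Among receptors and cofactors, 17 of 19 were tested and edgeR called none with all libraries. At an unadjusted P below 0.05, 2 were higher at 24 h (3.73% of all genes), and at 48 h 1 was higher (4.53%) and 1, SDC1, was lower (8.81%). The numbers became 3 higher at 24 h and 2 higher and 0 lower at 48 h without DMSO 48 h replicate 2, which took SDC1 from -1.51 to -0.27 (the shares of all genes were then 6.19%, 3.68% and 2.92%). Vitronectin (VTN), an adhesive protein of plasma and matrix, held 207, 143 and 179 CPM with DMSO and 431, 613 and 333 CPM with Molidustat at 24 h. At 48 h VTN held 235, 101 and 254 CPM with DMSO and 715, 531 and 747 CPM with Molidustat. Its groups did not overlap at either time. Log2FC was 1.38 ± 0.38, edgeR-adjusted P = 0.298 at 24 h and 1.75 ± 0.38, edgeR-adjusted P = 0.0913 at 48 h. Without DMSO 48 h replicate 2 VTN was called at both times (1.39, edgeR-adjusted P = 0.0102, and 1.43, edgeR-adjusted P = 0.0438), and DESeq2 and limma-voom called it at both times with all libraries. The heparan sulfate carrier SDC4 had log2FC of 0.85 at 24 h and -1.29 at 48 h, the latter being 0.41 without DMSO 48 h replicate 2. LRPAP1, the receptor-associated chaperone, had -0.16 at 24 h, or -0.34 to -0.04 with 1 library left out. At 48 h LRPAP1 had 0.08, and -0.11 without DMSO 48 h replicate 2. The medians of these 17 genes were 0.41 and 0.04, and 0.42 and 0.12 without it.

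Protease inhibitors of other families gave 18 tested genes of 31, and edgeR called none. At an unadjusted P below 0.05, 1 was higher at 24 h (3.73% of all genes), and at 48 h 5 were higher (4.53%) and 1, TIMP3, was lower (8.81%). These became 3 of 20 at 24 h and 6 higher and 0 lower at 48 h without DMSO 48 h replicate 2, which took TIMP3 from -1.15 to -0.35 (6.19%, 3.68% and 2.92% of all genes). DESeq2 and limma-voom called none at 24 h and AHSG, fetuin-A, at 48 h (1.41% and 1.71% of all genes), with all libraries. Leaving out DMSO 48 h replicate 2, DESeq2 called AHSG at 24 h too (log2FC 1.09, DESeq2-adjusted P = 0.0219). AMBP, the precursor of bikunin, had log2FC of 0.40 and 0.89, and TFPI, the tissue factor pathway inhibitor, had 0.68 and -0.84. At 48 h AMBP was at 0.48 and TFPI at 0.57 without DMSO 48 h replicate 2. Their medians were 0.11 and 0.33, beside 0.60 and 0.96 for the SERPIN genes and 0.31 and 0.99 for the proteases, differences that were not tested. They were 0.23 and 0.52 over 20 genes without DMSO 48 h replicate 2, beside 0.69 and 0.86.

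Hypoxia response genes served as a check of the treatment. Of 14 tested, edgeR called 8 higher at 24 h (0.231% of all genes) and 4 at 48 h (0.21%), with median log2FC of 2.31 and 1.70. The calls numbered 11 and 7 by DESeq2 (0.764% and 1.41% of all genes) and 9 and 11 by limma-voom (0.448% and 1.71%), so that which time had more calls depended on the tool. By edgeR, BNIP3, a mitophagy receptor, rose at both times (log2FC 2.81 ± 0.34, edgeR-adjusted P = 0.000977, at 24 h and 2.68 ± 0.34, edgeR-adjusted P = 0.00149, at 48 h). The other genes called at both were BNIP3L (2.66 and 2.35), the glycolytic enzyme PGK1 (2.80 and 1.99) and EPO, which at 24 h had 0 counts in every DMSO library and averaged 23.8 CPM with Molidustat. LDHA, PDK1, P4HA1 and SLC2A1 were called by edgeR at 24 h, with log2FC of 2.48, 3.60, 2.13 and 1.98, and LDHA and SLC2A1 were called at 48 h as well by DESeq2 and limma-voom. Leaving out DMSO 48 h replicate 2, edgeR called 10 of 15 at 24 h (0.728% of all genes), adding the hydroxylase EGLN1 (1.56) and NDRG1 (2.52), and 5 at 48 h (0.315%), adding LDHA (1.55).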

How the data were processed

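Huh7 RNA was prepared with QIAseq UPX 3′ libraries and, per the labels, the authors deposited raw counts of reads per gene, 1 file per library, 60666 genes each. The submitters' processing notes name bcl2fastq 2.17.1.14, cutadapt 1.9.1, STAR 2.7.9a, HTSeq 0.11.2, DESeq2 1.26.0 and GRCh38. The 5 summary lines that name no gene were left out of library sizes; the largest, reads on no feature, held 17.1 to 50.4% of each library. Gene types, names and positions came from GENCODE 44 (60437 IDs matched), and promoters from RefSeq on GRCh38.p14 (27 of the SERPIN genes matched).

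Counts were filtered (edgeR filterByExpr, minimum count 10, minimum total 15), scaled by TMM and fitted over all 12 libraries with 1 coefficient per group (edgeR 4.0.16 quasi-likelihood, R 4.3.3), with Benjamini-Hochberg adjustment over 14274 genes. A call needed adjusted P below 0.05 and, except for the difference between responses, an absolute log2 fold change above 1. The script was tested on simulated data. CPM were computed on TMM-scaled totals. Alternatives were RLE factors, total counts, DESeq2 1.42.0, limma-voom with quality weights (limma 3.58.1), no filter, a minimum of 10 counts in all libraries, separate fits by time, a replicate block and leaving out each library. DESeq2 and limma-voom without DMSO 48 h replicate 2, and the counts of genes without overlap at both times and between 48 h and 24 h with DMSO without it, were chosen after seeing the data.

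A gene that the name rule takes is not reported here and was left out of every count, share and median of the SERPIN genes, while the fits kept it. The other 33 are accounted for, and those tested are named. Values in every library are given for SERPINA1, SERPINA4, SERPINA5, SERPINA7, SERPINB1, SERPINB9, SERPIND1, SERPINE2 and SERPINF2. From each list of related genes, those called with all libraries or without DMSO 48 h replicate 2 and the 2 with the highest mean CPM were to be named; other list genes in the text (HPN, MASP1, AHSG, ELANE, CTSG, GZMA, GZMB, PLG, PLAT, PLAU, SDC1 and TIMP3) were chosen after their values were seen. The SERPIN genes and the lists were chosen with earlier results of these data known. Proteins were not analysed here.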

Additional observations from a re-analysis of the deposited data

How the results depend on the processing

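The SERPIN calls depended on the tool, the filter and DMSO 48 h replicate 2. Against 0 genes called higher by edgeR at 24 h and 0 at 48 h, DESeq2 called 1 and 3, limma-voom called 0 and 2, and no filter on low counts gave 1 and 3. Asking for at least 10 counts in every library gave 0 at both times. Leaving out 1 library gave 0 to 2 genes at 24 h, the 2 without DMSO 48 h replicate 2. At 48 h it gave 0 to 1. That gene was SERPINA7 without DMSO 48 h replicate 1 and SERPINA1 without DMSO 48 h replicate 2 or 3. The share of all genes without DMSO 48 h replicate 2 was 0.728% (24 h) and 0.315% (48 h). Shares over all genes are not given for the other fits with 1 library left out, or for the minimum of 10 counts. The SERPIN counts of those fits are therefore descriptions. Without DMSO 48 h replicate 2, DESeq2 gave 4 and 2 and limma-voom 2 and 2. With no filter, SERPINB9 alone differed in response between the times and was higher at 48 h than at 24 h with DMSO, which made 1 gene against 0 for each. The median log2 fold change at 48 h was 0.86 to 1.13 with 1 library left out, the highest without DMSO 48 h replicate 3. Over all alternatives, 239 counts and medians stayed within 1.5 times the count or 1 SD of the median reported, and 18 did not. Of the log2 fold changes of the 17 genes tested at the 2 times, 694 kept their direction and side of the threshold, 25 passed the threshold under an alternative and 16 changed direction.

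Direction changed for SERPINA4 at 24 h, whose log2 fold change ran from -0.13 (without DMSO 24 h replicate 1) to 2.07 with 1 library left out. It also changed for SERPINB9 at 48 h, which ran from -1.42 to 1.08 with 1 library left out, the upper value without DMSO 48 h replicate 2, and was 0.90 by limma-voom on all libraries, 1.12 by DESeq2 and 0.96 by limma-voom without that library. With 1 library left out, SERPINA10 at 48 h ran from -0.23 to 0.45, SERPINB6 at 48 h from -0.24 to 0.45, SERPINC1 at 48 h from -0.67 to 0.59 and SERPINI1 at 24 h from -0.28 to 0.16. By limma-voom at 48 h SERPINA10 was -0.070 and SERPINC1 -0.073, and without DMSO 48 h replicate 2 they were -0.10 and -0.15, with SERPINC1 at -0.069 by DESeq2. The cause of these reversals was not tested. Leaving out some 1 library moved the log2 fold change by over 1.5 times, or across 0, for 9 of the 17 genes at 24 h (SERPINA4, SERPINA5, SERPINB1, SERPINC1, SERPINE2, SERPINF1, SERPINF2, SERPINH1 and SERPINI1) and for 7 at 48 h (SERPINA4, SERPINA6, SERPINA7, SERPINA10, SERPINB6, SERPINB9 and SERPINC1). Scaling by total counts moved the median of all genes by 0.127 at 48 h, where the SERPIN median was 1.09, and no SERPIN gene changed sign.

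Libraries with the same replicate number deviated together no more than other pairs (correlations of -0.09 to 0.14, against -0.16 to 0.14). Deviations from means of so few libraries cannot exclude a pairing, so whether the numbers pair the libraries is not settled. With the replicate block edgeR again called 0 genes at 24 h and 0 at 48 h, the medians were 0.69 and 0.97, and the block changed no call. SERPINA4, SERPINC1, SERPINA10, SERPINE2 and SERPINA7 had few counts, 191 to 794 over all libraries, and the part of depth in this was not tested.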

Other observations

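Angiotensinogen (AGT; ENSG00000135744, chromosome 1, 230690776 to 230745576) is a serpin by its fold whose symbol the name rule does not take, and it was chosen after its values were seen. It is the precursor of the angiotensin peptides and inhibits no protease. AGT stood at 282, 286 and 285 CPM with DMSO and 353, 560.2 and 317 CPM with Molidustat at 24 h. At 48 h its levels were 504, 488 and 473 CPM with DMSO and 571, 433 and 689 CPM with Molidustat. Its groups were apart at 24 h (7.26% of all genes) and overlapped at 48 h. The log2FC of AGT was 0.53 ± 0.31, edgeR-adjusted P = 0.999 at 24 h and 0.21 ± 0.31, edgeR-adjusted P = 0.838 at 48 h, so AGT was called at neither time. With 1 library left out, it ran from 0.24 to 0.67 at 24 h and from 0.04 to 0.36 at 48 h.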
